A study of Homo sapiens with 16 samples.

Results

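The baseline map of histone H3 monomethylated at lysine 4 (H3K4me1) and histone H3 trimethylated at lysine 27 (H3K27me3) was drawn in BE2C cells given a control siRNA, siCtrl, for 72 h. It rests on 4 of the 16 libraries of the series, 2 for each mark, chosen by antibody and treatment as named in the sample titles. BE2C is an established human neuroblastoma cell line in which MYCN is amplified, so all libraries come from cells of the same line. The assay was CUT&Tag, in which a transposase guided by an antibody to the mark inserts sequencing adapters into nearby DNA. The other groups of the series, siRNA siKDM6B33 against the demethylase KDM6B, 0.1% DMSO and 2.5 µM GSKJ4, an inhibitor of that enzyme family, were used only where the siCtrl map differs from them. All cells were exposed for 72 h.

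H3K4me1 is laid down mainly by KMT2C and KMT2D and is found over enhancers and over the flanks of active promoters, where H3K4me3 takes the place at the start itself. H3K27me3 is written by the EZH2 subunit of Polycomb repressive complex 2 (PRC2), spreads over developmental genes that a cell type keeps silent, and is removed by KDM6A and KDM6B. Neuroblastoma arises from the sympathoadrenal branch of the neural crest, and its adrenergic state is known for a core of regulators that includes HAND2 and GATA3. A mesenchymal state marked by PRRX1 and its partners has also been described. H3K4me3 and transcripts were not analysed here, so a start with no island may be silent or active.

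A gene was said to carry a mark when an island, a broad region called by the program SICER, touched the 2.0 kb centred on its transcription start in both libraries of that mark. It was said to lack the mark when neither library had such an island, and it was left as not settled when the libraries disagreed. Of 20090 protein-coding genes, 4446 (22.1%) carried H3K4me1 and 3001 (14.9%) carried H3K27me3. H3K4me1 alone stood at 3691 starts (18.4%), H3K27me3 alone at 2231 (11.1%), both marks at 642 (3.2%) and neither at 12102 (60.2%), while 1424 genes (7.09%) were not settled. Under these rules a gene has both marks if their islands touch its start window, which does not show that they lie on the same nucleosome, allele or cell.

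Starts with a mark were richer in CpG than starts with neither, and 1 promoter of each class is shown to make CpG content visible, from 250 bases before the start to 50 bases after it, 5′ to 3′ on the strand of the gene. The genes were taken by symbol order, not by value, from a set of neuroblastoma, lineage and chromatin genes. Capitals mark CpG, the dinucleotide CG, which reads the same on both strands and is the site of DNA methylation. CCND1, which encodes cyclin D1, had H3K4me1 only (chr11:69455674-69455973, hg19, plus strand, 25 CpG). GATA6, a transcription factor of heart and endoderm, had H3K27me3 only (chr18:19749300-19749599, plus strand, 25 CpG). ALK, a receptor tyrosine kinase mutated in some neuroblastomas, had both (chr2:30144403-30144702, minus strand, 28 CpG). ALB, the liver gene of serum albumin, had neither (chr4:74269754-74270053, plus strand, 4 CpG), and it is poorer in CpG than most of its class.
CCND1: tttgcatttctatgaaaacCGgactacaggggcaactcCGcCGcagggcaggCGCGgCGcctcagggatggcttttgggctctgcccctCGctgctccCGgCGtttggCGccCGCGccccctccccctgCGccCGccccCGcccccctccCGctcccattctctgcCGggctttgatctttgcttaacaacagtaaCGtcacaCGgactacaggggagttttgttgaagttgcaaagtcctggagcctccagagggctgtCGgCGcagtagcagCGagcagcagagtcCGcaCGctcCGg
GATA6: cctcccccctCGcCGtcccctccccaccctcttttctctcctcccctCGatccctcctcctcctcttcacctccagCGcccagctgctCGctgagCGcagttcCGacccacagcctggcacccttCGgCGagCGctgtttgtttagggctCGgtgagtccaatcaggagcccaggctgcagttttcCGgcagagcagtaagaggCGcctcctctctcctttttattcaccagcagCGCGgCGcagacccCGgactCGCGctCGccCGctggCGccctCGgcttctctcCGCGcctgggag
ALK: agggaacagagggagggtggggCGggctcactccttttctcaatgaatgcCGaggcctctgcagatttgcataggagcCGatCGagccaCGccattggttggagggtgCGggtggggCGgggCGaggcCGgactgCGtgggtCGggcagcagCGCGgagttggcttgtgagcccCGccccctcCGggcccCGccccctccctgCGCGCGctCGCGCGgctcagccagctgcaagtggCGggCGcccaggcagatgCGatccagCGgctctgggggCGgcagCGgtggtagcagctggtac
ALB: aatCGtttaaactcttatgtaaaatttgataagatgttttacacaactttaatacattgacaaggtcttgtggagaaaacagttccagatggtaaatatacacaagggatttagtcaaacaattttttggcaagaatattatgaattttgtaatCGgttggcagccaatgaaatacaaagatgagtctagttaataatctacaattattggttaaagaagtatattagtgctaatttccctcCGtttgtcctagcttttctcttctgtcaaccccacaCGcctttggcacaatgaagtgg

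Over all genes, the same 300 bases held a median of 29 CpG where H3K4me1 stood alone, 26 where H3K27me3 stood alone, 29 where both stood and 19 where neither did, beside 23 for all starts, so the 3 marked classes were close to each other. With neither mark the middle 50% of starts held 5 to 29 CpG, a range that overlaps those of the marked classes. At least 1 CpG was present in 98.2% of all promoters of this length. In the full start window the ratio of observed to expected CpG had medians of 0.681, 0.687, 0.711 and 0.587 in the same order. A ratio of at least 0.6, a usual mark of a CpG island, was reached by 66.2% of starts with H3K4me1 only, 67.9% with H3K27me3 only, 75.5% with both and 48.1% with neither, beside 56.0% of all starts. The share of starts with H3K4me1 went from 5.66% in both libraries at a ratio under 0.2 to 33.9% and 34.3% at 0.8 to 1. For H3K27me3 the share went from 6.10% and 5.80% to 20.9% and 20.8% over the same range. At the lowest ratio the marks were about as frequent, and H3K4me1 was the more frequent mark in every higher bin. The classes also differed in gene length, with medians of 23.6 kb for H3K4me1 only, 47.2 kb for H3K27me3 only and 19.8 kb for both, beside 27.3 kb for all genes.

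**Figure D1:**
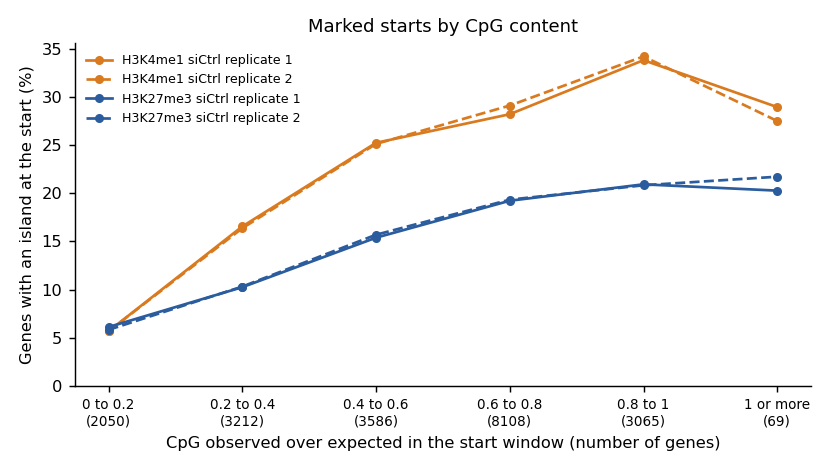
Percent of protein-coding starts that touch an island (vertical axis) in 6 bins of the ratio of observed to expected CpG in the start window (horizontal axis, number of genes in brackets), with a line for each library. H3K4me1 is in orange and H3K27me3 in blue, solid for replicate 1 and dashed for replicate 2. Both marks are least frequent in the leftmost bin, at 5.66% for H3K4me1 and 6.10% and 5.80% for H3K27me3, and the last bin holds 69 genes only.

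H3K4me1 islands were more numerous and covered more of the genome. They numbered 21535 and 21699 in the H3K4me1 libraries and 10555 and 10592 in the H3K27me3 libraries (21617 ± 116 and 10574 ± 26.2, SD, n = 2 each, exact two-sided permutation p = 0.33). With 2 libraries against 2 this is the smallest p the test can give, so no difference between the marks can pass 0.05. The islands covered 103.0 and 98.6 Mb for H3K4me1 and 53.7 and 54.2 Mb for H3K27me3, which is 3.39% and 3.25% of the genome against 1.77% and 1.78%. Both differences exceeded the spread between replicates many times over. At equal covered length, with the highest scores kept, the difference in number of islands, H3K27me3 minus H3K4me1, turned from −11044 to 3958, since fewer and wider H3K4me1 islands then fill the same length. The depth of the libraries moved with the mark. The background of a library, read from its narrow peaks in tags over a base, was 0.0902 and 0.0849 for H3K4me1 and 0.0395 and 0.0401 for H3K27me3, so depth and mark cannot be told apart in these counts.

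The widths of the islands were close. The median width was 3600 and 3400 bp for H3K4me1 and 3800 bp in both H3K27me3 libraries, a difference of 300 bp (3500 ± 141 bp for H3K4me1, SD, n = 2, exact permutation p = 0.33). The middle 50% of the H3K4me1 islands spanned 2400 to 5600 bp and 2200 to 5200 bp, and those of H3K27me3 2600 to 5800 bp in both libraries. The width at which 50% of the covered length is reached was 5800 and 5600 bp against 6200 bp in both. Islands of at least 20 kb numbered 314 and 287 for H3K4me1 and held 9.28% and 8.96% of its length. For H3K27me3 they numbered 196 and 190 and held 11.3% and 11.2%. The widest island measured 195.4 and 169.8 kb for H3K4me1 and 105.6 and 111.2 kb for H3K27me3. Both H3K4me1 values and the 111.2 kb lay in the interval around MYCN, the amplified oncogene, which is given below. Outside this interval the order of the marks was the opposite in replicate 1. The widest island there measured 77.6 kb for H3K4me1, at ZFPM1, and 105.6 kb for H3K27me3, in the HOXA cluster. When every library was cut to the covered length of the shortest, highest scores first, the difference in median width, H3K27me3 minus H3K4me1, was −2700 bp. This value does not compare the widths of the marks. The score is a sum over the island and rose with width (Spearman rho 0.678 to 0.728 over the islands of a library), and the cut kept 28.9% and 31.2% of the H3K4me1 islands, with medians of 6800 and 6200 bp, but 100% and 97.8% of the H3K27me3 islands. With narrow peaks in place of islands the difference in median width was −2 bp.

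**Figure D2:**
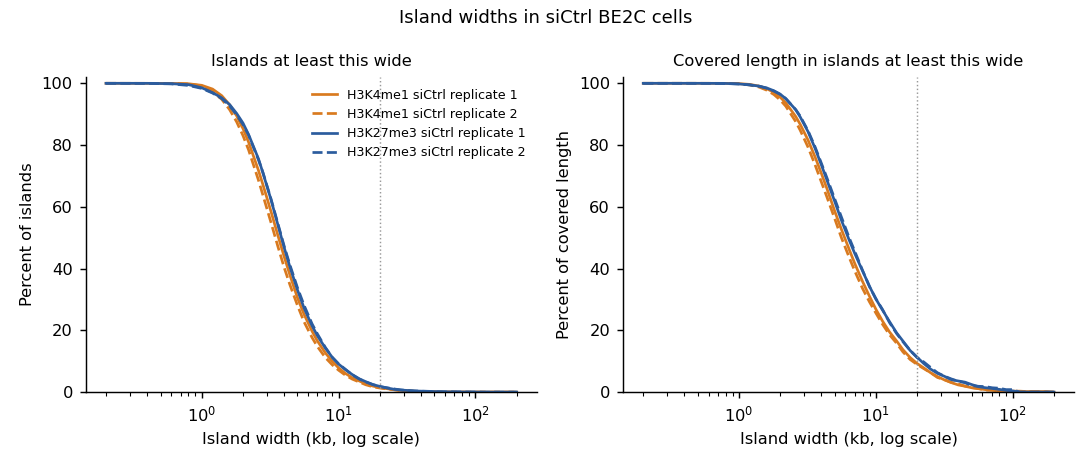
Percent of islands (left) and of covered length (right) in islands at least as wide as the value on the horizontal axis (kb, log scale), with a line for each of the 4 siCtrl libraries and a dotted line at 20 kb. The 4 curves lie close together, with medians from 3400 to 3800 bp.

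Transcription starts held a larger part of the H3K27me3 islands. A start window was touched by 19.5% and 19.8% of H3K4me1 islands and by 28.8% of H3K27me3 islands in both libraries (19.7 ± 0.169% and 28.8 ± 0.0378%, SD, n = 2 each, exact permutation p = 0.33), a difference of 9.12 percentage points. Islands at a start were wider than those elsewhere, with median widths of 3800 and 3600 bp against 3400 and 3200 bp for H3K4me1, and of 4400 against 3600 bp in both libraries for H3K27me3. Of the islands of at least 20 kb, 65.8% and 64.2% touched a start for H3K27me3 and 44.3% and 46.7% for H3K4me1. Averaged over all 20090 starts, H3K4me1 islands covered most in the 500 bp just before the start, at 22.9% and 23.2%, and H3K27me3 islands in the 500 bp just after it, at 14.9% in both. At 10 kb into the gene H3K4me1 covered 7.80% and 7.41%, more than the 5.66% and 5.44% at 10 kb before the start, whereas H3K27me3 covered 3.46% and 3.38% after against 3.66% and 3.74% before.

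**Figure D3:**
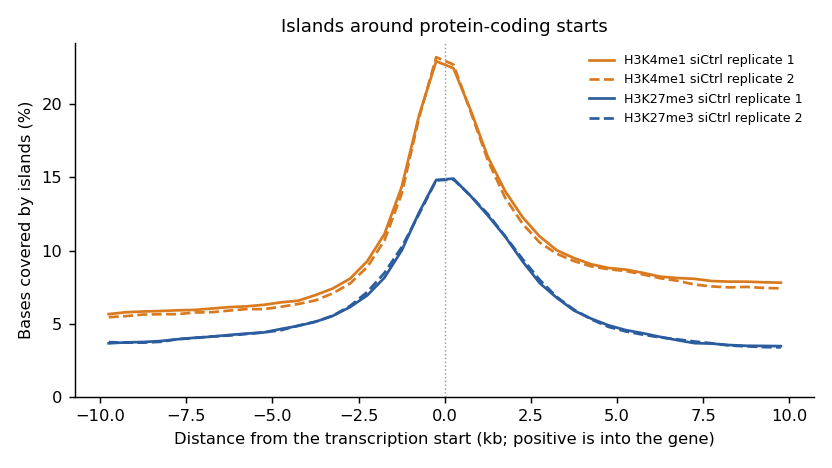
Percent of bases covered by islands (vertical axis) in 500-bp steps from 10 kb before to 10 kb after the transcription start (horizontal axis), averaged over 20090 protein-coding genes, with a line for each library. Both marks peak at the start, near 23% for H3K4me1 and near 15% for H3K27me3, and H3K4me1 stays higher inside the gene than before it.

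Most of the length of each mark lay outside the other, though the marks met more than their shares of the genome. H3K27me3 islands had 8.90% to 9.06% of their length inside H3K4me1 islands over the 4 pairs of libraries, where H3K4me1 islands covered 3.25% and 3.39% of the genome. H3K4me1 islands had 4.68% to 4.93% of their length inside H3K27me3 islands, which covered 1.77% and 1.78% of the genome. The share depends on which H3K4me1 libraries are joined. Islands of either siCtrl library held 10.1% and 9.99% of the H3K27me3 length, and islands of any of the 4 H3K4me1 libraries of the knockdown experiment, siKDM6B33 included, held 20.8% and 20.6%. The length shared by 2 lists, as a share of their combined length, was 0.0317 to 0.0330 between marks, and 0.727 and 0.637 between replicates of H3K4me1 and of H3K27me3. An H3K27me3 island that touched no H3K4me1 island in either library lay a median of 109.4 and 109.9 kb from the nearest. Bases called for both marks in all 4 libraries came to 3.85 Mb in 1177 segments with a median of 2400 bp, which is 9.17% of the length called for H3K27me3 in both its libraries and 4.54% of that for H3K4me1. Of these segments, 595 (50.6%) touched a start window. H3K27me3 islands that touched H3K4me1 in both libraries, 1158 and 1139 of them, were at a start in 57.3% and 59.0% of cases, beside 24.6% and 24.3% of those that touched none. Broad H3K27me3 islands met H3K4me1 more often than H3K27me3 islands in general, 84 of 196 and 77 of 190 islands of at least 20 kb (42.9% and 40.5%) against 11% and 10.8% of all H3K27me3 islands, and a wider island has more bases that can touch another.

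At the level of genes, H3K27me3 was about as frequent with H3K4me1 as without it. Among genes with H3K4me1 in a library, 15.3% to 15.8% had H3K27me3, and among genes without it 16.2% to 16.3%, over the 4 pairs. These shares come from the same genes in 4 pairings of 4 libraries and are given as a description. Long noncoding genes were marked less often than protein-coding genes. Of 18576, H3K4me1 alone stood at 2306 starts (12.4%), H3K27me3 alone at 1171 (6.30%), both at 316 (1.70%) and neither at 13908 (74.9%).

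Genes that make and store catecholamines, the product of sympathoadrenal cells, mostly had H3K4me1 at the start. None had H3K27me3 there, beside 14.9% of all genes, and with 10 genes this count is not far from that share. Of the 10 genes in this group 8 had H3K4me1 only and 2 had neither, beside 18.4% and 60.2% of all genes. TH, tyrosine hydroxylase, which catalyses the rate-limiting step, lay on chromosome 11 from 2185159 to 2193045 in H3K4me1 islands of 27.8 and 29.8 kb. INS, the insulin gene of pancreatic beta cells, has its start in these same islands. DBH, which turns dopamine into noradrenaline, had islands of 19.4 and 20.6 kb at its start, and CHGA, the granule protein chromogranin A, of 35.6 and 42.2 kb. SLC6A2, the noradrenaline transporter, had islands of 27.2 and 23.4 kb, while CHGB had narrow ones of 1.4 and 1.6 kb. SLC18A2, the vesicular monoamine transporter, and GCH1, an enzyme in the synthesis of the TH cofactor, had no island at the start, but H3K4me1 islands covered 29.8% and 26.9% of SLC18A2 and 20.3% and 19.8% of GCH1 with 5.0 kb on each side.

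The regulators of the adrenergic state were split. Of 17, 7 had H3K4me1 only (41.2%, beside 18.4% of all genes), 3 H3K27me3 only (17.6%, beside 11.1%), 2 both (11.8%, beside 3.2%) and 4 neither (23.5%, beside 60.2%), and ISL1 was not settled, with an H3K4me1 island of 4 kb at its start in replicate 2 only. H3K4me1 stood alone at GATA2 (6.8 and 7 kb), GATA3 (13.4 and 4.8 kb), PHOX2A (2.8 and 13.6 kb) and TBX2 (43.6 and 41.8 kb), all transcription factors of this lineage. HAND2, central to it, had no island at the start. The nearest H3K4me1 island was 3.58 and 5.02 kb from its start, and the nearest H3K27me3 island was 360.4 and 360.2 kb away. H3K27me3 stood alone at INSM1, LMO1 and SOX11, where the islands measured 2.8 and 3.4 kb, 2.8 and 4.6 kb, and 8 and 8.6 kb. LMO1, a neuroblastoma oncogene, also held H3K4me1 away from its start, over 48.9% and 41.5% of the gene with its flanks. When islands anywhere in the gene with 5.0 kb on each side were counted, H3K4me1 was present at 16 of the 17 in place of 9, beside 39.5% of all genes under this rule in place of 22.1%.

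MYCN, the amplified oncogene, was covered by both marks over its whole start window in all 4 libraries. The islands at its start measured 195.4 and 24.2 kb for H3K4me1 and 25.8 and 110.6 kb for H3K27me3, so the breaks between islands differed between replicates. Chromosome 2 from 16000000 to 17000000, the interval around MYCN, held 0.457 Mb (11.9%) of the 3.85 Mb called for both marks, and outside it 8.17% of the H3K27me3 length was shared. The part played by copy number in calls over this interval was not tested.

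Receptors for growth factors carried 1 mark or the other more often than genes in general. Of 19 receptor tyrosine kinases and neurotrophin receptors, 5 had H3K4me1 only (26.3%, beside 18.4% of all genes) and 6 H3K27me3 only (31.6%, beside 11.1%). Both marks stood at 5 (26.3%, beside 3.2%), 3 were not settled, and none had neither, beside 60.2% of all genes. RET, the receptor for GDNF in sympathetic neurons, had some of the widest H3K4me1 islands at a start, 57.0 and 58.8 kb. H3K27me3 stood alone at NTRK2, NTRK3 and KIT, with islands of 5.4 and 5.8 kb at NTRK2. At ALK the H3K4me1 islands measured 3.8 and 4.4 kb and covered the whole start window, and the H3K27me3 islands, 2.4 and 1.8 kb, covered 47.4% of it and ended 0.052 kb from the start base.

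Genes linked to the mesenchymal state carried H3K27me3 at 11 of 22 starts (50.0%, beside 14.9% of all genes) and H3K4me1 at 7 (31.8%, beside 22.1%). Of the 22, 10 had H3K27me3 only, 6 H3K4me1 only, 1 both and 5 neither. PRRX1, a homeobox factor of mesenchyme, had H3K27me3 islands of 17.6 and 15.6 kb, and the nearest H3K4me1 island lay 571.7 and 571.9 kb from its start. YAP1, a coactivator of the Hippo pathway, and VIM, the intermediate filament vimentin, also had H3K27me3 alone, with islands of 7.2 and 6.2 kb and of 2.6 and 3 kb. H3K4me1 stood alone at TWIST1 (4.2 and 3.0 kb), SNAI2 (4.4 and 7.6 kb) and SOX9 (10.4 and 11 kb), factors that also act in the neural crest. With narrow peaks in place of islands the list was even, with 8 genes for each mark. At equal covered length none of the 22 had H3K4me1 and 11 had H3K27me3. That cut kept nearly all H3K27me3 islands, so H3K4me1 counts could only fall and H3K27me3 counts could hardly change.

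Regulators of other lineages were mostly under H3K27me3. Of 37, 19 had H3K27me3 only, 7 both, 2 H3K4me1 only and 7 neither, so 27 carried H3K27me3 when those not settled for the other mark are counted (73.0%, beside 14.9% of all genes). With narrow peaks 17 carried H3K27me3. At equal covered length, a cut that can only lower H3K4me1 counts, the 9 with H3K4me1 fell to 2. PAX7, a factor of muscle stem cells and early neural crest, had H3K27me3 islands of 30.8 and 32.0 kb. NKX2-1, the lung and thyroid regulator, had islands of 17.0 and 26.0 kb that covered 97.3% and 100% of the gene with its flanks. MYOD1, the muscle determination factor, had islands of 7.2 and 8.6 kb, and GATA6 of 9.2 and 12 kb. The genes with both marks included PAX6, PAX2, PAX3, GATA4, SOX2, LHX2 and EMX2. At PAX6, the eye and forebrain regulator, H3K4me1 islands of 11 and 8.4 kb lay within H3K27me3 islands of 32.0 and 25.8 kb over the start. WT1 had no island at the start.

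The HOX genes, which set position along the body axis, differed from cluster to cluster. Of 39, 20 had H3K27me3 only (51.3%, beside 11.1% of all genes), 7 both (17.9%, beside 3.2%), 5 H3K4me1 only (12.8%, beside 18.4%) and 6 neither (15.4%, beside 60.2%), and HOXA13 was not settled. The 28 HOX genes with H3K27me3 fell to 12 with narrow peaks in place of islands, and the 12 with H3K4me1 to 6. The HOXA cluster (chromosome 7 from 27132612 to 27239710) was covered by H3K27me3 over 99.1% and 99.3%, most of it by a single island of 105.6 and 105.4 kb, which ranked first among H3K27me3 islands at a start by the smaller of the 2 libraries. H3K4me1 covered 8.88% and 7.1% of it, near HOXA11 and HOXA13. The HOXB cluster (chromosome 17 from 46605888 to 46806112) had H3K27me3 over 79.6% and 84.5% and no H3K4me1 island, and all 10 of its genes had H3K27me3 only. In the HOXC cluster (chromosome 12 from 54332615 to 54449814) H3K4me1 covered 73.0% and 74.2% and H3K27me3 31.6% and 37.9%. H3K27me3 lay at the HOXC13 end, where H3K4me1 islands overlapped it, so that 16.2% and 19.3% of the cluster was under both marks. HOXC4, HOXC5, HOXC6, HOXC8 and HOXC9 had H3K4me1 only, 4 of them inside islands of 51.6 and 60.8 kb. HOXC10, HOXC11 and HOXC12 had both marks, and HOXC13 at the far end had H3K27me3 only, in islands of 47.4 and 47.6 kb. In the HOXD cluster (chromosome 2 from 176957449 to 177055635) HOXD11, HOXD12 and HOXD13 had both marks and the other 6 genes neither, and H3K27me3 covered 18.9% and 19.7%.

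**Figure D4:**
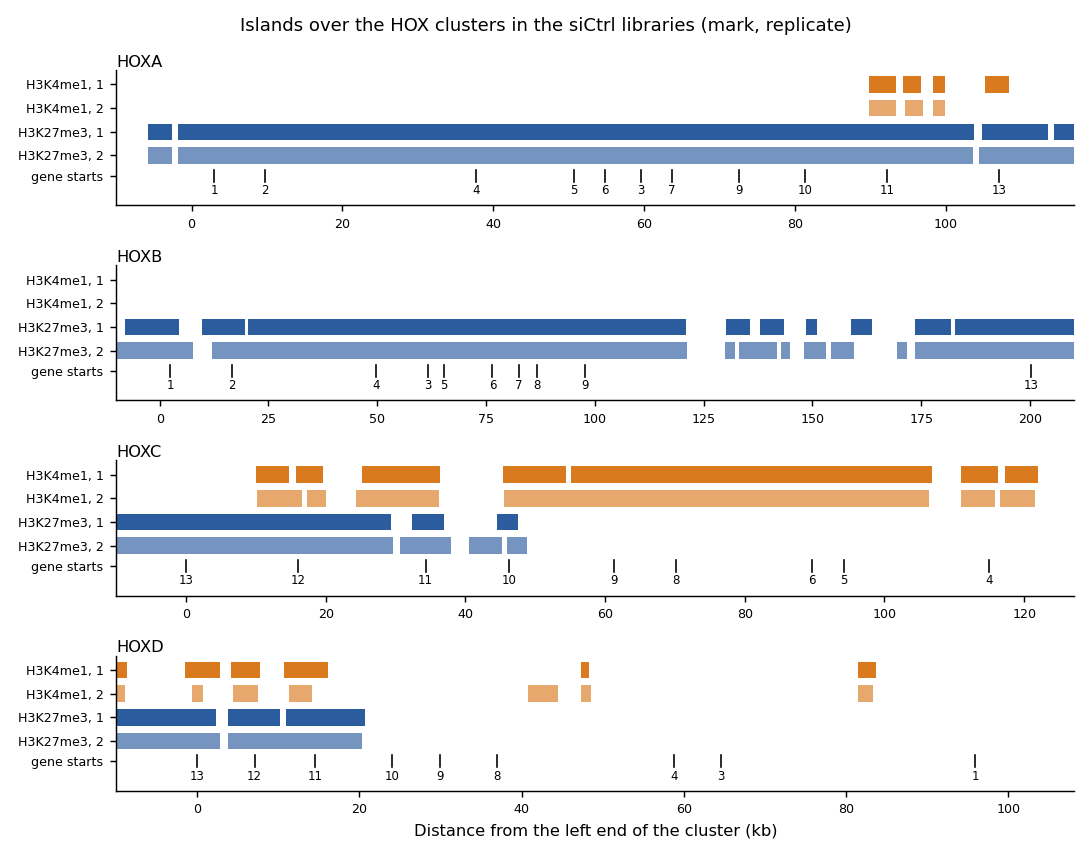
Islands over the HOXA, HOXB, HOXC and HOXD clusters, drawn to scale by distance from the left end of each cluster (kb), with a row for each library (H3K4me1 in orange, H3K27me3 in blue, replicate 2 paler) and ticks for the gene starts with the number of the gene. H3K27me3 fills HOXA and most of HOXB, H3K4me1 fills the HOXC4 to HOXC9 side of HOXC, and in HOXD both marks lie at HOXD11 to HOXD13.

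Ligands of the WNT family, morphogens of development, often had both marks. Of 19, 7 had both, 6 H3K27me3 only, 1 H3K4me1 only and 2 neither, where 3.2% of all genes had both. The 8 WNT genes with H3K4me1 fell to 5 at equal covered length. That cut kept 100% and 97.8% of the H3K27me3 islands, so the 15 WNT genes with H3K27me3 could hardly change. WNT1 and WNT10B start inside the same H3K27me3 islands of 20 and 24.4 kb, and their H3K4me1 islands measured 5.4 and 5 kb and 5 and 3.6 kb. WNT7B had H3K4me1 islands of 12.4 and 3 kb and H3K27me3 islands of 12.2 and 11.2 kb. WNT7A, with 10.8 and 11.4 kb, had H3K27me3 only. Axon guidance genes, which steer growing neurites, were spread over the classes, with 21 H3K4me1 only (30.4%, beside 18.4% of all genes), 15 H3K27me3 only (21.7%, beside 11.1%), 7 both and 18 neither of 69. Their H3K27me3 group held the receptors DCC and UNC5D, the ligand NTN1 and the receptors EPHA3, EPHA4, EPHA5, EPHA6 and EPHA7, and their H3K4me1 group the receptors UNC5A, UNC5B and UNC5C and the ephrin ligands EFNA5, EFNB1 and EFNB3.

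Genes of cell division and of the ribosome, which dividing cells use, carried little H3K27me3. Of 30 E2F and cell cycle genes none had H3K27me3, beside 14.9% of all genes, a count that was 0 to 2 under the alternatives. H3K4me1 stood alone at 11 (36.7%, beside 18.4%), and the count with H3K4me1 was 2 to 20 under the alternatives. Neither mark stood at 17 (56.7%), close to the 60.2% of all genes. E2F1, a transcription factor of S phase entry, had H3K4me1 islands of 17.0 and 3.8 kb, and PCNA, the sliding clamp of DNA replication, of 1.2 and 1 kb. CCNE1 and PLK1 had neither mark. Of 81 ribosomal protein genes 17 had H3K4me1 only (21.0%, close to the 18.4% of all genes) and 56 neither (69.1%, beside 60.2%). RPS12 alone had H3K27me3 only (1.23%, beside 11.1%). On the axis from cyclin-dependent kinases to the retinoblastoma protein, CCND1 (19 and 7.4 kb) and CDK4 (6.8 and 6.6 kb) had H3K4me1 only, and RB1 and CDKN2A had neither. CDKN1A, the inhibitor p21, and CDK6 had both marks, with H3K4me1 islands of 5.0 and 5.2 kb and of 8.2 and 7.0 kb, and H3K27me3 islands of 2.4 and 3.0 kb and of 2.4 and 4.2 kb. CCND2 had H3K27me3 only, in islands of 10.6 and 47.8 kb.

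Enzymes that write or remove the marks were without an island about as often as genes in general. Of 14 genes of PRC2 and the H3K27 demethylases 9 (64.3%, beside 60.2% of all genes) had neither, among them EZH2, SUZ12 and KDM6A. KDM6B had H3K4me1 only, with islands of 13.2 and 13.4 kb over its start, and EED, a PRC2 subunit, had narrow H3K27me3 islands of 1 and 0.6 kb. Of 10 H3K4 methylation enzymes 6 (60.0%) had neither, and KMT2B had both.

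Markers of other cell types were examined beside the label. Of 26 genes found in the annotation 18 had neither mark (69.2%, beside 60.2% of all genes, so this share is no check of the label), among them the liver genes ALB and APOA1, the blood cell gene PTPRC and the endothelial gene CDH5. KRT5, a keratin of epithelium, had H3K27me3 only, and INS, APOB and CKM had H3K4me1 only. COL1A1, a fibroblast collagen, had both marks, in islands of 3.2 and 2.4 kb and of 2.6 and 3.8 kb. The defining sympathoadrenal genes TH, DBH, CHGA and PHOX2A had H3K4me1 only, as given above. Islands do not measure transcripts.

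Large gene families differed. Of 55 keratin genes 16 had H3K27me3 only (29.1%, beside 11.1% of all genes), 4 H3K4me1 only (7.27%, beside 18.4%) and 33 neither (60.0%, beside 60.2%). Among 399 olfactory receptor genes, 13 had H3K27me3 only (3.26%, beside 11.1% of all genes) and 380 neither (95.2%, beside 60.2%). None had H3K4me1 in both libraries, beside 22.1% of all genes. Of 53 clustered protocadherins 51 had neither (96.2%, beside 60.2% of all genes), and PCDHGC3 and PCDHGC4 had H3K4me1 only. Of 246 zinc finger genes on chromosome 19, 24 had H3K4me1 only (9.76%), 2 H3K27me3 only (0.813%) and 217 neither (88.2%). The shares were 23.7%, 8.58% and 55.9% over all 1480 genes of that chromosome, and 18.4%, 11.1% and 60.2% over all genes.

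**Figure D5:**
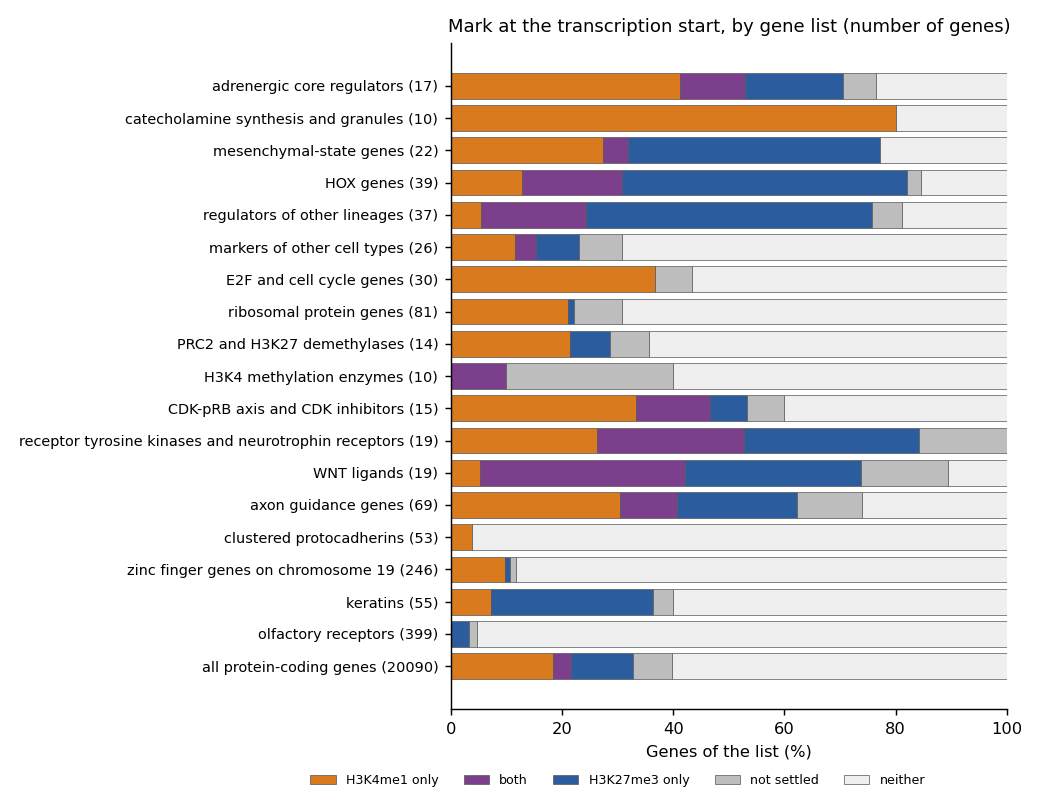
Share of the genes of each list (horizontal axis, percent, number of genes in brackets) with H3K4me1 only (orange), both marks (purple), H3K27me3 only (blue), not settled (dark grey) or neither mark (pale grey) at the start, with all 20090 protein-coding genes in the lowest bar. Catecholamine genes hold H3K4me1 at 8 of 10, HOX genes H3K27me3 only at 20 of 39, and olfactory receptors neither at 380 of 399.

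The widest islands at starts lay in a HOX cluster for H3K27me3 and in part for H3K4me1. The 10 genes with the widest H3K27me3 islands, ranked on the smaller of the 2 libraries, all start in the single HOXA island. For H3K4me1 they were ZFPM1 (77.6 and 73.2 kb), a cofactor of GATA factors, KIF26A (66.8 and 64.4 kb), CXXC5 (71.4 and 62.0 kb), RET, KLF13 (54.0 and 55.2 kb), FAM222A (53.0 and 52.2 kb) and 4 HOXC genes of a single island. ZFPM1 also had H3K27me3 islands of 4.0 and 3.4 kb at its start. Beyond HOXA and HOXB, the widest H3K27me3 islands of replicate 1 lay in the MYCN interval, at EN2 (86.6 kb), a midbrain homeobox gene, inside RBFOX3 (79.4 kb, with no protein-coding start), a neuronal splicing factor, and at UNCX (74.0 kb), IRF8 (67.0 kb), of the myeloid lineage, and SHH (59.4 kb), the secreted morphogen. The 10 genes with the most of the start window and gene under both marks were LRRC26, SOX8, MYCN, ENSG00000261793, TMEM210, NDUFA4L2, HES4, SSTR5, NXPH4 and C1QTNF8. SOX8, a factor of neural crest, had H3K4me1 islands of 16.4 and 14.8 kb and H3K27me3 islands of 20.4 and 17.2 kb. LRRC26, TMEM210 and ENSG00000261793 are neighbours under the same islands.

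The class counts depend on how islands are counted. At equal covered length, which drops narrow islands of H3K4me1 above all, H3K4me1 alone stood at 1240 starts, H3K27me3 alone at 2733 and both at 207. Narrow peaks gave 4203, 878 and 1286, and the whole gene with 5.0 kb on each side 5931, 2395 and 1760.

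At starts, fewer of the genes with H3K27me3 also had H3K4me1 with siCtrl than in the other groups. Of genes with H3K27me3 at the start in a library, 23.2% to 24.4% had H3K4me1 with siCtrl and 62.9% to 73.6% with DMSO, over the 4 pairs of an H3K27me3 and an H3K4me1 library. Averaged over the H3K4me1 libraries, the values of the H3K27me3 libraries were 23.6% and 23.9% against 68.3% in both (exact permutation over 2 and 2 libraries, p = 0.33, which is the smallest possible), and this average hides the wider spread over the DMSO pairs. Over the 4 pairs the share was 56.4% to 57.1% with siKDM6B33 and 62.5% to 66.4% with GSKJ4. By length the siRNA groups were close to each other. The H3K27me3 length inside H3K4me1 islands was 11.2% to 11.5% with siKDM6B33, 50.1% to 57.7% with DMSO and 51.0% to 67.8% with GSKJ4. Replicate 1 of H3K27me3 with GSKJ4 stood apart, with 16676 islands of median 3000 bp against 8006 of 7400 bp, and without it the GSKJ4 range was 51.0% to 52.4%. Of the 2231 genes with H3K27me3 only in siCtrl, 600 were in that class with DMSO and 448 had both marks, and of the 642 genes with both in siCtrl 462 had both. Of the 3691 with H3K4me1 only in siCtrl, 603 had both with DMSO. Over all genes, 621 (3.09%) had H3K27me3 only with DMSO and 1622 (8.07%) had both. The H3K27me3 islands were also wider with DMSO, with medians of 6600 and 7000 bp against 3800 bp, and fewer, 7175 and 7398. The siCtrl and DMSO cells come from separate experiments, so the treatment and the experiment cannot be told apart.

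Against KDM6B knockdown the siCtrl map differed in H3K4me1 at starts. A start window was touched in 24.4% and 24.8% of genes with siCtrl and 57.7% in both siKDM6B33 libraries (24.6 ± 0.260% and 57.7 ± 0.0246%, SD, n = 2 each, exact permutation p = 0.33), while for H3K27me3 it was 16.0% and 16.1% against 17.4% and 17.3%. Of the 12102 genes with neither mark in siCtrl, 6362 still had neither after knockdown, and of the 3691 with H3K4me1 only 3402 stayed in that class. Over all genes, 6629 (33.0%) had neither after knockdown and 9236 (46.0%) had H3K4me1 only. The depth of the siKDM6B33 libraries was not compared here.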

How the data were processed

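Islands and narrow peaks had been called by the authors in each library on its own, on hg19, after alignment with BWA (0.7.12), removal of duplicates with Picard (1.65) and selection of properly paired, uniquely mapped fragments of 150 to 2000 bp with SAMtools (1.3.1). The authors called islands with SICER (1.1, 200-bp windows, 600-bp gaps, FDR 1e-05), and the deposited score of an island is the caller's own sum, used only to rank islands within a library. For narrow peaks the deposited lists give fold enrichment, a ratio to the background of the library, and −log10 p and q, from MACS2 at q = 0.05. These 2 values of a peak fix its background in whole tags, from which depth was read. Counts of reads were not used.

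Gene starts were the canonical starts of GENCODE 44 mapped to GRCh37, on chromosomes 1 to 22 and X, and GC and CpG came from that genome. Computation used Python 3.11.15, NumPy 2.4.6, pandas 2.3.3, SciPy 1.17.1 and matplotlib 3.10.9. Overlap meant at least 1 bp. Differences between marks were tested over libraries by exact permutation, two-sided, at a threshold of 0.05. Shares of genes describe these libraries and carry no test. Named genes were a set of neuroblastoma, lineage and chromatin genes, the 10 genes with the widest start islands of each mark, the 10 with the most of the window under both marks, and up to 4 further members of each of 18 lists. Members and lists were chosen with earlier results of these data known. The study calls its replicates biological, but separate cultures are not described in the sources used here, and p-values measure only the spread between these libraries. The gene calls and the reading of depth were tested on simulated data. Alternatives are given in the closing section. Some named genes and sequences are not reported here, and the promoters shown were the first by symbol in each class among the others of the set of neuroblastoma, lineage and chromatin genes.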

Additional observations from a re-analysis of the deposited data

Results flagged for a closer look

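The share of very narrow islands differed between the marks in opposite directions in the control experiments. Islands under 1 kb made up 0.65% and 0.843% of the H3K4me1 islands and 1.44% and 1.652% of the H3K27me3 islands with siCtrl, a difference of 0.799 percentage points. With DMSO they made up 1.40% and 2.05% for H3K4me1 and 0.0836% and 0.0676% for H3K27me3, a difference of −1.646 percentage points. Each library of a mark lay on the same side of both libraries of the other mark within its experiment, and the difference between the experiments was not tested.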

How the results depend on the processing

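Of 130 values recomputed for the 11 results, 113 were unchanged by the rule for their kind, 11 moved and 6 reversed. The 61 differences between marks were judged by direction alone, and 55 kept it, some at a very different size. Narrow peaks gave −95694 for the number of islands in place of −11044, and −6.77 Mb for covered length in place of −46.9 Mb. Gene counts and the overlap had to stay near the reported value. With 2 libraries for each mark no setting can bring p under 0.05, so the permutation test says nothing about stability. At equal covered length, H3K27me3 minus H3K4me1 was 3958 for the number of islands, −2700 bp for the median width, −3400 bp for the length-weighted median width and −5.82 percentage points for islands of at least 20 kb. Genes with H3K4me1 only then fell to 1240 and those with both marks to 207, and 4.46% of the H3K27me3 length lay inside H3K4me1 islands. Narrow peaks gave −2 bp for the median and −41 bp for the length-weighted median width, 878 genes with H3K27me3 only, 1286 with both and 7644 with neither, and an overlap of 11.7%. Over the whole gene with 5.0 kb on each side there were 5931 genes with H3K4me1 only and 1760 with both. The overlap was 8.57% for islands of at least 2 kb and 8.20% without the MYCN interval, beside 8.99%. The causes were not tested, except that the cut to equal covered length ranks by a score that rises with width and so removes narrow H3K4me1 islands, which turns its width values. Without 1 library the difference in islands was −11126 to −10962, in covered length −49.1 to −44.7 Mb, and in median width 200 to 400 bp, and genes with both marks numbered 693 to 716. With the replicate number as a replicate block the difference in islands was −11044 (exact sign-flip p = 0.5, the smallest possible) and no direction changed, but same-numbered libraries shared only a number: their deviations over 10-kb bins had r = 9e-05. In the counts of 7 lists, examined as alternatives after the data were seen, the mark at more starts was the same under 15 of 15 settings for 6 lists, and for mesenchymal-state genes narrow peaks gave a tie. At equal covered length H3K4me1 counts could only fall, so this setting could hardly turn the order of lists with more H3K27me3. Equal covered length gives no difference in covered length, and no narrow peak reached 20 kb, so these values do not exist. Depth was lower for H3K27me3, so an absent H3K27me3 island may be less certain than an absent H3K4me1 island, which was not tested.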

Other observations

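Chromosomes differed in how often their starts were marked. On chromosome 22, 33.8% of 450 genes had H3K4me1 only and 6.44% H3K27me3 only. On chromosome 18 the order was the opposite, with 3.76% and 19.9% of 266 genes, and none had both marks. On chromosome X 2.53% of 868 genes had H3K4me1 only, 6.22% H3K27me3 only and 88.1% neither, and islands covered 0.603% and 0.561% of the chromosome for H3K4me1 and 0.195% and 0.193% for H3K27me3. Copy number by chromosome was not analysed here.

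Genes without a mark at the start seldom had one within 10 kb of it. Of the 12102 genes with neither mark, 441 (3.64%) had an H3K4me1 island within 5 kb of the start in both libraries and 1014 (8.38%) within 10 kb, among them HAND2. For H3K27me3 these numbers were 197 (1.63%) and 492 (4.07%). Of the 2231 genes with H3K27me3 only, 41 (1.84%) had an H3K4me1 island within 5 kb and 112 (5.02%) within 10 kb. Over the whole gene with 5.0 kb on each side 8549 genes had neither mark, in place of 12102.

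Most H3K4me1 islands held narrow peaks, with no peak in 4.85% and 5.08% of them and a median of 3 peaks. Of the H3K27me3 islands 47.1% and 47.5% held none, and the median was 1.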
